A study of Homo sapiens with 6 samples.

Results

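The 35 genes described here carry cholesterol through a B cell: 20 enzymes of its synthesis, 5 genes of the SREBP control circuit, 4 of uptake and intracellular transport, 4 of efflux and its LXR regulators, and 2 of storage and oxysterol production. They were listed by name by their place in the pathway, with earlier results of these data known, and were matched by gene identifier to 35 of the 23459 rows of the deposited count table. Messenger RNA was sequenced from Raji, an established human line from a Burkitt's lymphoma of germinal centre origin. Knockdown cells carried OBF1sh1, a hairpin (shRNA) that targets the OBF1 transcript, in 3 libraries, and control cells carried the non-targeting hairpin SHC002, also in 3 libraries. Both groups had the same lentiviral vector, pLKO.1, packaged in 293T cells, 5 days of infection and 7 days of selection in 3 μg/ml puromycin. OBF1 is the product of POU2AF1, a coactivator that B cells use together with the Oct factors. Knockdown rests on 1 hairpin, so effects of that hairpin on other transcripts cannot be told apart from those of OBF1 loss.

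Cells make cholesterol from acetyl-CoA through mevalonate, isoprenoid diphosphates, squalene and lanosterol. Transcription of the enzymes is driven by sterol regulatory element binding proteins (SREBPs), the products of SREBF1 and SREBF2. When membrane sterol is plentiful, INSIG proteins hold SCAP and its SREBP cargo in the endoplasmic reticulum, and when it is scarce SCAP escorts SREBP to the Golgi, where proteases free the active factor. Surplus sterol is sensed instead as oxysterols by the liver X receptors (LXRs), which switch on the exporters ABCA1 and ABCG1. In dividing lymphocytes the synthesis arm feeds new membranes, and oxysterols made from cholesterol also guide B cells within lymphoid tissue.

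Each library held between 29569281 and 32612429 counts, and 12010 genes passed the low-count filter. POU2AF1, the target of the hairpin, had 244, 241 and 241 CPM in OBF1 shRNA libraries, against 512, 516 and 512 CPM in control libraries, a 2.12-fold reduction (log2 change -1.09 with SE 0.02, adjusted p = 1.25e-17 by edgeR). Levels are given as CPM, the counts of a gene scaled to library size, with TMM scaling to correct for composition, and adjusted p-values are Benjamini-Hochberg values from edgeR's quasi-likelihood test over all 12010 genes. Nothing in the labels ties the 3 libraries of a group to separate cultures, so p-values here reflect library-to-library spread that could be technical. All 7 B cell markers were expressed, and their summed level ranged from 4375 to 4435 CPM in OBF1 shRNA libraries and from 2639.9 to 2715 CPM in control libraries. The 10 myeloid markers summed to 2.11 to 2.23 CPM in OBF1 shRNA libraries and to 1.90 to 1.98 CPM in control libraries, and 4 of them, FCGR1A, S100A9, MPO and CD163, had 0 counts. The T and NK cell list of 8 markers reached a sum of 0.950 to 1.15 CPM in OBF1 shRNA libraries and of 0.0960 to 0.208 CPM in control libraries, with CD3D and GNLY at 0 counts. The 10 epithelial, fibroblast and neural markers summed to 31.7 to 32.95 CPM in OBF1 shRNA libraries and to 2.74 to 2.85 CPM in control libraries, nearly all from COL1A1, whose partner chain COL1A2 had means of 0.0224 and 0 CPM in OBF1 shRNA and control libraries. Of the B cell markers, 6 were higher (5 with library sizes alone) and 1, CD79B, was lower in knockdown cells. With TMM scaling, 37.5% of all genes tested were higher and 37.9% lower (edgeR quasi-likelihood, adjusted p under 0.05). MS4A1 brought most of the rise in the B cell marker sum, with 2077 CPM in OBF1 shRNA libraries and 702 CPM in control libraries. CD79A differed by 1.10-fold. Of the other lists, COL1A1, NKG7 and ITGAM rose and LYZ fell 3.81-fold, with means of NKG7, ITGAM and LYZ of 1.30 CPM or less. The part of these markers in the results below was not tested. In a bulk sample, fewer cells making a transcript and less of it per cell cannot be told apart.

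Transcripts of cholesterol synthesis enzymes were higher nearly throughout in OBF1 knockdown cells, while that of the sterol exporter ABCA1 was lower. Of the 35 genes, 33 passed the low-count filter, and of these 28 rose and 4 fell (edgeR quasi-likelihood, adjusted p under 0.05). Over all genes tested, 75.4% were called, 37.5% as higher and 37.9% as lower. With library sizes alone as the scaling, all genes split into 3476 higher and 5778 lower in place of 4508 and 4550, while the synthesis enzymes kept 18 higher and 2 lower under every scaling tried. Among the calls, 19 members rose and 2 fell by 1.5-fold or more, where 12.9% and 10.4% of all genes did so. The median log2 fold change of the 33 members was 0.81, against -0.01 over all genes tested. The groups did not overlap for 32 of the 33 members, and for 76.6% of all genes. ABCG1 and CH25H were too low to be tested. A stricter test, chosen after seeing the data, asked whether a change exceeded 1.5-fold. It left 19 members higher and 1 lower, with 9.83% of all genes higher and 6.55% lower.

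**Figure D1:**
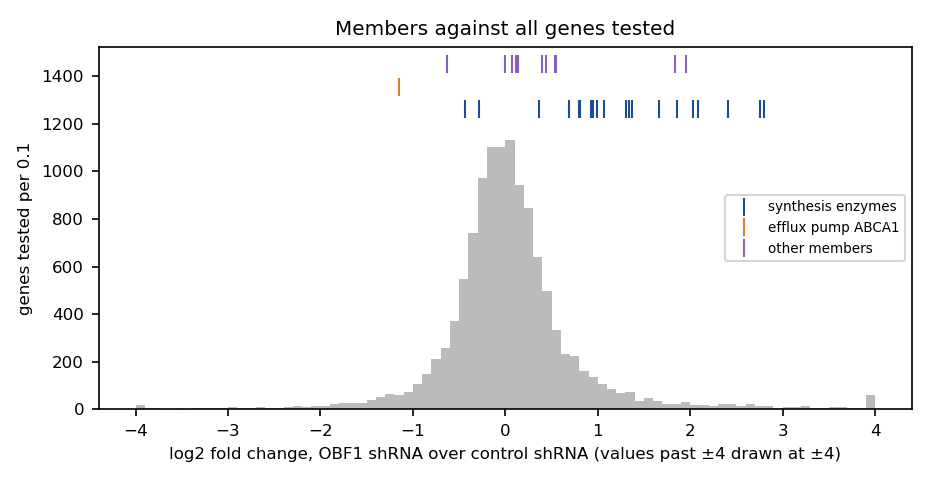
Histogram of the log2 fold change (OBF1 shRNA over control shRNA) of all 12010 genes tested, with values past ±4 drawn at ±4, and above it ticks for the 33 tested members. Of the 20 synthesis enzymes, 18 lie right of 0, and the exporter ABCA1 lies left of 0 at -1.15.

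Promoter sequences of 5 members are printed, taken from different parts of the pathway. MVD and HMGCS1 rose strongly, INSIG1 is the feedback gene, SREBF2 encodes an SREBP and ABCA1 fell. Each run is the 250 bases before the annotated start site, from RefSeq on GRCh38.p14, written 5′ to 3′ along the gene. Capitals mark the CCAAT box (CCAAT, or ATTGG on the other strand) and the core of the sterol regulatory element (CACNCCAC, or GTGGNGTG on the other strand), where N is any base. MVD lies at chr16:88663092-88663341 on the minus strand, HMGCS1 at chr5:43313413-43313662 on the minus strand, INSIG1 at chr7:155297628-155297877 on the plus strand, SREBF2 at chr22:41832855-41833104 on the plus strand and ABCA1 at chr9:104928156-104928405 on the minus strand. These positions belong to the sequence table and not to the build on which the counts were made.
MVD: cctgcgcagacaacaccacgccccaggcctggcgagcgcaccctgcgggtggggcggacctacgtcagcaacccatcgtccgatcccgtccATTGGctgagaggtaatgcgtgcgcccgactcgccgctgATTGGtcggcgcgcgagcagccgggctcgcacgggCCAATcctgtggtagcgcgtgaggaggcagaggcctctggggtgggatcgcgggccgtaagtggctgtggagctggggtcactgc
HMGCS1: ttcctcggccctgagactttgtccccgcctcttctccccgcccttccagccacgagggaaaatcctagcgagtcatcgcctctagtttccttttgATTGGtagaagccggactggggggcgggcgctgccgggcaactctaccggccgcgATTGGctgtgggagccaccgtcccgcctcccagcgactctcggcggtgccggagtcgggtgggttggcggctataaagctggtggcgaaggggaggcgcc
INSIG1: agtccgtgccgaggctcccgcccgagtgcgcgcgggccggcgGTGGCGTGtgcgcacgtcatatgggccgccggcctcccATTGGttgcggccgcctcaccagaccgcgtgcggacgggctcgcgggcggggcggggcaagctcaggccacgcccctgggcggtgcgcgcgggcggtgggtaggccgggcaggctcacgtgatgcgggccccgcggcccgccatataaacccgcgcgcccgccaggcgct
SREBF2: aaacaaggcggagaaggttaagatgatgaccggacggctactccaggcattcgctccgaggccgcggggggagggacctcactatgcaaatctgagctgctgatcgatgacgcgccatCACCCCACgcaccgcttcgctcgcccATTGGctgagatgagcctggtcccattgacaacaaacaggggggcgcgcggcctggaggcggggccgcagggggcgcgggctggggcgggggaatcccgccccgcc
ABCA1: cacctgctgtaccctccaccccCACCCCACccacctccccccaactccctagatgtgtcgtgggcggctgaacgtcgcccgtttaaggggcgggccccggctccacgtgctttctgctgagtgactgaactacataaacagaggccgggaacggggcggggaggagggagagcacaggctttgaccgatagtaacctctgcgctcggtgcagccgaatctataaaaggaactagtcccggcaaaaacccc

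MVD held CCAAT boxes starting 159, 120 and 85 bases before the start site, and HMGCS1, shown for the upstream one of its 2 starts, at 155 and 100 bases. INSIG1 held one at 170 bases and SREBF2 at 106 bases, and ABCA1 had none in this window. Start sites of 31 of the 35 members matched the table, and all their windows were searched on both strands. A CCAAT box, the site of the factor NF-Y, lay in a window of 21 of the 31 members, against 37.0% of all 27305 genes in the table. Among the 16 members that rose at least 1.5-fold and had a window, 15 held one, as did 6 of the other 15. The GC box GGGCGG, bound by SP1, lay in 29 of 31 members and 46.2% of all genes, and the E-box CACGTG in 4 members and 7.73% of all genes. The GC box lay in 15 of the 16 members that rose at least 1.5-fold and in 14 of the other 15. The 27305 genes were not limited to the 12010 tested in Raji, so their shares are not those of expressed genes. The sterol regulatory element written as TCACNCCAC lay only in the SREBF2 window among the members (1.09% of all genes), where it overlaps the marked core. Its shorter core lay in 5 members, ABCA1, IDI1, INSIG1, SC5D and SREBF2, and in 5.89% of all genes. This core was in 3 of the 16 members that rose at least 1.5-fold and in 2 of the other 15. The LXR element was searched only as a perfect direct repeat of AGGTCA with any 4 bases between. That spelling was in 0 members and in 0.0183% of all genes, so its absence does not show that a window lacks an LXR element. The ABCA1 window printed above holds a near match, tgaccgatagtaacct, that this search did not count. A match describes the letters and shows no binding, and sites outside the window or spelled otherwise were not searched.

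The enzymes that build and phosphorylate mevalonate held the largest changes of the pathway. All 5 rose, where 37.5% of all genes tested were called higher, and their median log2 fold change was 2.41. ACAT2, the cytosolic thiolase that joins acetyl-CoA units, had 242, 239.9 and 242 CPM in OBF1 shRNA libraries, against 34.05, 36.9 and 36.0 CPM in control libraries. The lowest knockdown library was thus far above the highest control library, and the gene rose 6.77-fold (log2 change 2.76 with SE 0.03, adjusted p = 3.88e-21 by edgeR). HMGCS1, the synthase that adds the next acetyl unit to give HMG-CoA, had 1088, 1104 and 1107 CPM in OBF1 shRNA libraries, against 205, 209 and 206 CPM in control libraries. It rose 5.32-fold (log2 change 2.41 with SE 0.02, adjusted p = 4.75e-22), and replicates of a group differed by little beside that gap. MVK, mevalonate kinase, averaged 75.6 ± 2.75 CPM in OBF1 shRNA libraries and 20.9 ± 1.41 CPM in control libraries (SD, n = 3 each) and rose 3.61-fold.

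PMVK, the phosphomevalonate kinase of the next step, changed least among the enzymes that rose. It had 41.7, 40.7 and 44.4 CPM in OBF1 shRNA libraries, against 32.2, 36.0 and 30.6 CPM in control libraries, a 1.28-fold gain (log2 change 0.36 with SE 0.05, adjusted p = 9.78e-06 by edgeR), and the 2 groups came close without overlap. MVD, the decarboxylase that yields isopentenyl diphosphate, had 126, 124 and 144 CPM in OBF1 shRNA libraries, against 18.4, 21.9 and 16.2 CPM in control libraries. Its 6.96-fold gain was the largest of the 33 tested members (log2 change 2.80 with SE 0.07, adjusted p = 2.24e-16) and stood at percentile 98.8 of the log2 fold changes of all genes tested. Its replicates varied more than those of the other 4 enzymes here on the scale of the fold change, with an SE of 0.07.

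At the isoprenoid steps IDI1 and FDPS, of the arm that leads to sterols, rose, while GGPS1, of a side branch, fell. IDI1, the isomerase of isopentenyl diphosphate, had 323, 306 and 312 CPM in OBF1 shRNA libraries, against 125, 127 and 129 CPM in control libraries, and rose 2.47-fold (log2 change 1.30 with SE 0.03, adjusted p = 9.7e-18 by edgeR). FDPS, which makes the farnesyl diphosphate used for squalene, had 319.8, 312 and 309 CPM in OBF1 shRNA libraries, against 119, 126 and 119 CPM in control libraries and rose 2.58-fold (SE of the log2 value 0.03). A near copy, the pseudogene FDPSP2, had means of 2.24 and 0.920 CPM in OBF1 shRNA and control libraries. GGPS1 takes farnesyl diphosphate to geranylgeranyl diphosphate, the lipid anchor of many small GTPases. It had 26.7, 26.3 and 28.8 CPM in OBF1 shRNA libraries, against 36.6, 36.3 and 37.7 CPM in control libraries, so every knockdown library lay below every control library. GGPS1 fell by 0.43 on the log2 scale (SE 0.05, adjusted p = 1.37e-07 by edgeR), a 1.35-fold reduction.

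All 3 enzymes from farnesyl diphosphate to lanosterol rose at least 1.5-fold, by unequal amounts. Among all genes tested, 37.5% were called higher, and 12.9% were called and at least 1.5-fold higher. FDFT1, squalene synthase and the first enzyme committed to sterols, had 638, 639 and 638 CPM in OBF1 shRNA libraries, against 196, 206 and 204 CPM in control libraries, a 3.16-fold gain (log2 change 1.66 with SE 0.03, adjusted p = 9.22e-20 by edgeR). SQLE, the squalene monooxygenase, had 391, 397 and 399.7 CPM in OBF1 shRNA libraries, against 240.4, 248 and 247 CPM in control libraries. It rose 1.62-fold (log2 change 0.69 with SE 0.02, adjusted p = 1.9e-14), the smallest gain of the 3. LSS, lanosterol synthase, which folds the epoxide into the sterol ring system, averaged 359 ± 15.3 CPM in OBF1 shRNA libraries and 88.0 ± 1.74 CPM in control libraries (SD, n = 3 each) and rose 4.08-fold, to a level that no control library approached.

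Of the 9 genes between lanosterol and cholesterol, 8 rose at least 1.5-fold and 1, LBR, fell, with a median log2 fold change of 0.95. Among all genes tested, 12.9% were called and at least 1.5-fold higher. CYP51A1, the lanosterol demethylase, averaged 78.0 ± 1.79 CPM in OBF1 shRNA libraries and 39.2 ± 0.527 CPM in control libraries (SD, n = 3 each) and rose 1.99-fold. TM7SF2 and LBR encode enzymes that can reduce the same sterol double bond, and LBR is also the lamin B receptor of the inner nuclear membrane. TM7SF2 had 37.5, 37.0 and 37.4 CPM in OBF1 shRNA libraries, against 9.15, 9.37 and 7.84 CPM in control libraries, a 4.24-fold gain (log2 change 2.08 with SE 0.06, adjusted p = 9.08e-16 by edgeR). LBR had 422, 390.0 and 391 CPM in OBF1 shRNA libraries, against 496, 477 and 494 CPM in control libraries, and fell by 0.29 on the log2 scale (SE 0.03, adjusted p = 1.05e-07 by edgeR). The pair thus changed in opposite directions, and even so LBR kept the higher length-scaled level in knockdown cells, at 101 against 17.4 RPKM, the CPM per kilobase of gene length.

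MSMO1, the methyl sterol oxidase, had 143, 142 and 141 CPM in OBF1 shRNA libraries, against 56.5, 55.7 and 56.6 CPM in control libraries, a 2.52-fold gain. Next in the demethylation complex come NSDHL and HSD17B7, a decarboxylating dehydrogenase and a ketoreductase. NSDHL rose 1.75-fold, averaging 46.5 ± 0.663 CPM in OBF1 shRNA libraries and 26.6 ± 0.281 CPM in control libraries (SD, n = 3 each). HSD17B7 rose 1.93-fold, averaging 30.8 ± 0.408 CPM in OBF1 shRNA libraries and 15.95 ± 0.834 CPM in control libraries (SD, n = 3 each), but reads may be shared with its near copy HSD17B7P2, which had means of 15.7 and 8.16 CPM in OBF1 shRNA and control libraries and the same log2 fold change of 0.95. The isomerase EBP, the desaturase SC5D and the reductase DHCR7 then move, add and reduce double bonds of the ring. EBP rose 1.91-fold, averaging 80.9 ± 1.92 CPM in OBF1 shRNA libraries and 42.5 ± 2.03 CPM in control libraries (SD, n = 3 each). SC5D rose 1.73-fold, averaging 113 ± 0.687 CPM in OBF1 shRNA libraries and 65.2 ± 2.54 CPM in control libraries (SD, n = 3 each). DHCR7 had 188, 176 and 186 CPM in OBF1 shRNA libraries, against 87.7, 87.5 and 87.9 CPM in control libraries, a 2.09-fold gain. For none of these enzymes did the groups overlap, nor did they for 76.6% of all genes tested. Adjusted p-values of the 20 synthesis enzymes ranged from 4.75e-22 for HMGCS1 to 9.78e-06 for PMVK (edgeR quasi-likelihood).

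**Figure D2:**
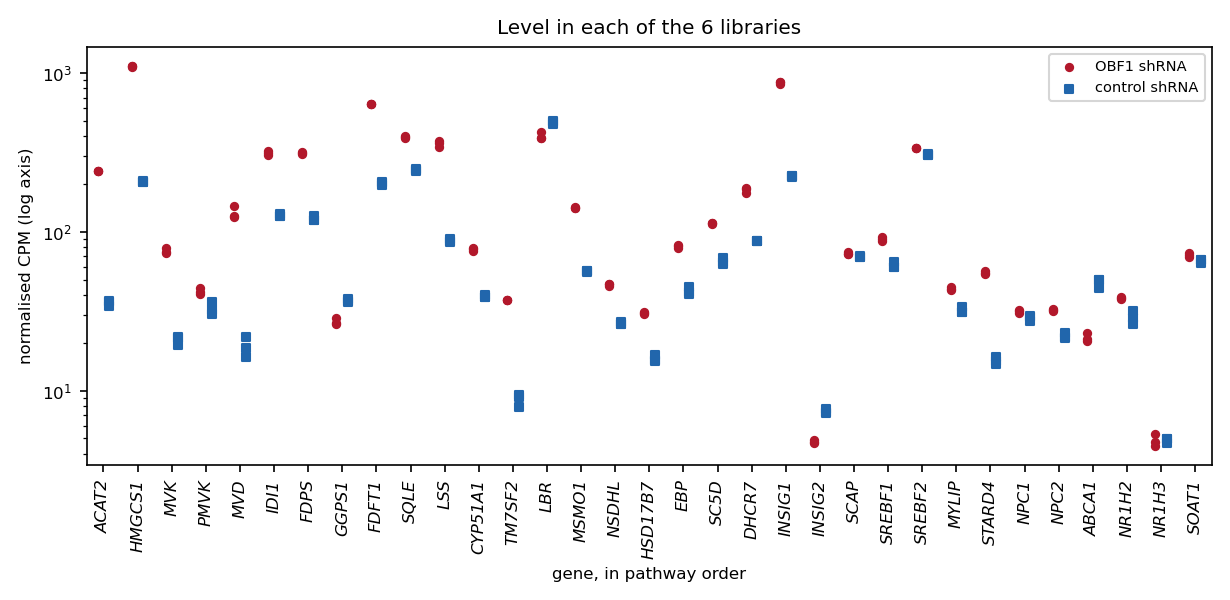
Normalised CPM (log axis) of the 33 tested members in pathway order, 1 point per library, with OBF1 shRNA libraries as circles left of control shRNA libraries as squares. The 3 libraries of a group sit close together, and for the synthesis enzymes other than GGPS1 and LBR the circles lie above the squares.

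As a group the synthesis enzymes took 4784, 4699.6 and 4768 CPM in OBF1 shRNA libraries, against 1956, 1971 and 1973 CPM in control libraries. The summed level was 2.42 times as high in knockdown cells. HMGCS1 alone made up 23.1% of the sum in OBF1 shRNA libraries and 10.5% in control libraries, while LBR made up 8.44% and 24.9%. Per length, the most abundant enzyme transcript was HMGCS1 in knockdown cells (202 RPKM) and LBR in control cells (123 RPKM). The least abundant was GGPS1 in knockdown cells (8.75 RPKM) and TM7SF2 in control cells (4.09 RPKM). MVD ranked 12 of the 20 by RPKM in knockdown cells and 17 in control cells, and ACAT2 ranked 6 in knockdown cells and 13 in control cells.

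**Figure D3:**
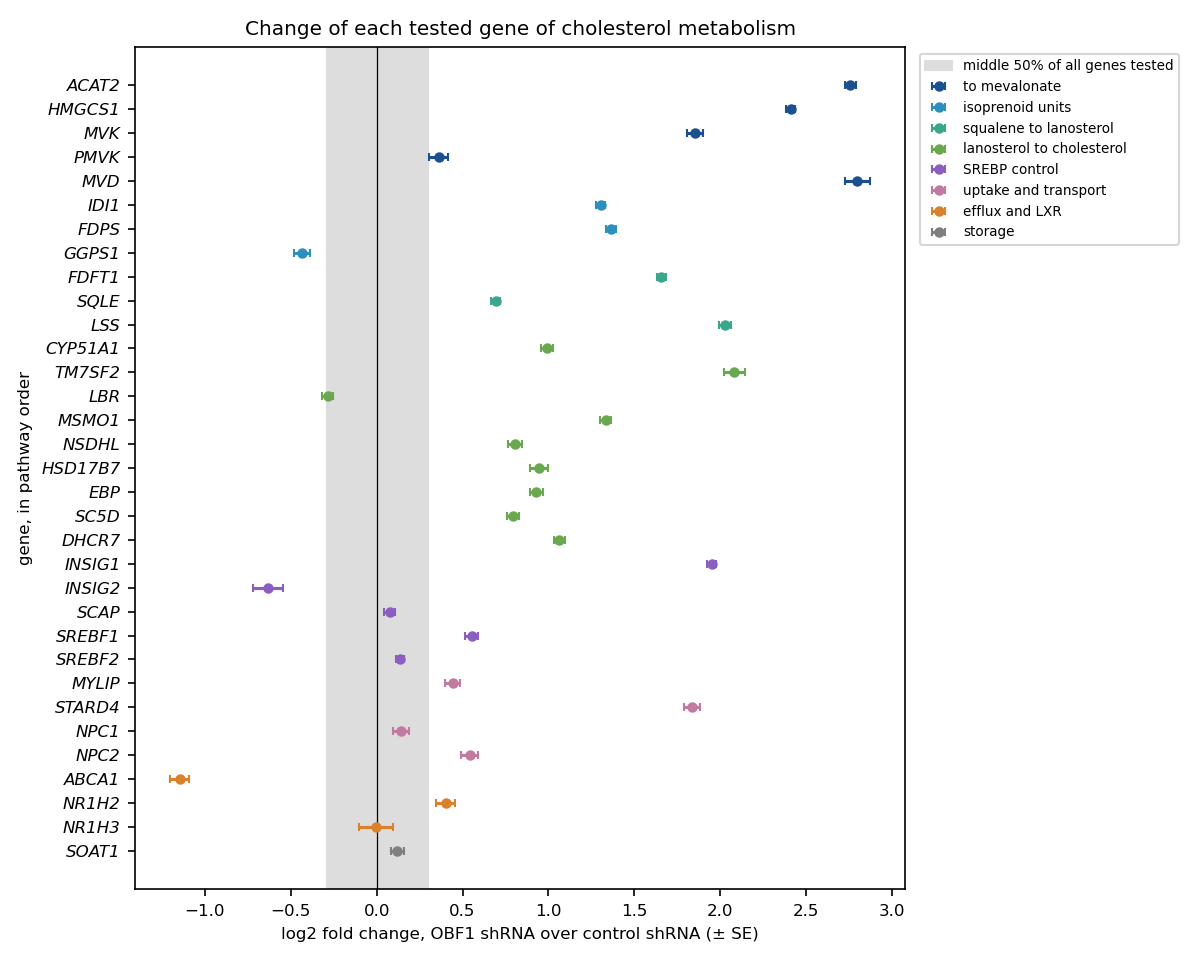
Log2 fold change (OBF1 shRNA over control shRNA, ± SE) of the 33 tested members from the first enzyme at the top to storage at the bottom, coloured by role, with the middle 50% of all genes tested as a grey band. The enzymes spread from -0.43 for GGPS1 to 2.80 for MVD, INSIG1 and STARD4 lie among the enzymes that rose most, and ABCA1 lies farthest to the left.

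In the SREBP control circuit the feedback gene INSIG1 rose strongly, whereas SCAP and SREBF2 differed by 1.10-fold or less. INSIG1, an SREBP target whose product holds SCAP back, had 874, 855 and 873 CPM in OBF1 shRNA libraries, against 226, 222 and 225 CPM in control libraries. It rose 3.87-fold (log2 change 1.95 with SE 0.02, adjusted p = 8.17e-21 by edgeR). INSIG2, the related retention protein that is less dependent on SREBP, had 4.68, 4.92 and 4.79 CPM in OBF1 shRNA libraries, against 7.68, 7.35 and 7.27 CPM in control libraries, and fell by 0.63 on the log2 scale (SE 0.09, adjusted p = 3.2e-06 by edgeR). Per length, INSIG1 was by far the more abundant of the 2, at 281 against 1.86 RPKM in knockdown cells and 72.8 against 2.88 RPKM in control cells.

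SREBF1, whose product favours fatty acid genes and which is itself an LXR target, had 90.5, 87.3 and 93.0 CPM in OBF1 shRNA libraries, against 60.3, 64.5 and 59.7 CPM in control libraries, a 1.47-fold gain (log2 change 0.55 with SE 0.04, adjusted p = 2.94e-10 by edgeR). SREBF2, whose product favours cholesterol genes, had 339, 335 and 336 CPM in OBF1 shRNA libraries, against 306, 308 and 306 CPM in control libraries. The groups stood apart, but the gain was only 1.10-fold (log2 change 0.13 with SE 0.02, adjusted p = 4.73e-05), and it lost its call when libraries were scaled by size alone (log2 fold change 0.03, adjusted p = 0.308). SCAP had 72.8, 72.9 and 74.1 CPM in OBF1 shRNA libraries, against 69.0, 69.4 and 70.0 CPM in control libraries, a 1.05-fold difference at the edge of the threshold (log2 change 0.08 with SE 0.03, adjusted p = 0.0415 by edgeR). That call was lost with DESeq2 (adjusted p = 0.0819), with any 1 library but control replicate 3 left out (adjusted p = 0.0531 to 0.123), and its sign turned with library sizes alone (log2 fold change -0.03). The transcripts of SREBP and SCAP do not report how much SREBP protein was processed.

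Among genes of uptake and transport, the sterol carrier STARD4 changed most. STARD4 moves cholesterol between membranes in the cytosol and is an SREBP target. It had 57.1, 55.3 and 53.9 CPM in OBF1 shRNA libraries, against 14.8, 15.4 and 16.3 CPM in control libraries, a 3.57-fold gain (log2 change 1.84 with SE 0.05, adjusted p = 1.87e-16 by edgeR). MYLIP, an LXR-induced ubiquitin ligase that sends lipoprotein receptors to degradation, had 42.7, 43.4 and 44.9 CPM in OBF1 shRNA libraries, against 33.7, 31.4 and 31.4 CPM in control libraries and rose 1.36-fold (log2 change 0.44 with SE 0.04, adjusted p = 4.52e-08). NPC1 and NPC2 hand cholesterol from endocytosed lipoproteins out of the lysosome. NPC2, the soluble carrier, rose 1.46-fold, averaging 32.2 ± 0.457 CPM in OBF1 shRNA libraries and 22.1 ± 0.973 CPM in control libraries (SD, n = 3 each). NPC1, the membrane protein, had 31.7, 32.1 and 30.8 CPM in OBF1 shRNA libraries, against 29.4, 27.3 and 29.1 CPM in control libraries, a 1.10-fold difference (edgeR quasi-likelihood adjusted p = 0.0105) that lost its call with library sizes alone (adjusted p = 0.547).

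On the efflux side, the pump that was expressed fell. ABCA1, which loads cholesterol onto lipid-poor apolipoproteins, had 23.2, 21.1 and 20.6 CPM in OBF1 shRNA libraries, against 49.6, 44.4 and 49.8 CPM in control libraries. Every knockdown library was below every control library, and ABCA1 fell by 1.15 on the log2 scale (SE 0.06, adjusted p = 1.89e-12 by edgeR), a 2.21-fold reduction at percentile 3.51 of all genes tested. ABCG1, the pump that exports to mature lipoprotein particles, had 0, 0 and 1 counts in OBF1 shRNA libraries and 4, 5 and 0 counts in control libraries. These sums of 1 and 9 counts, in OBF1 shRNA and control libraries, were too low for the filter, so the difference was not tested.

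NR1H2, which encodes the widely expressed LXR beta, had 38.2, 38.0 and 38.7 CPM in OBF1 shRNA libraries, against 28.7, 31.7 and 26.4 CPM in control libraries and rose 1.32-fold (log2 change 0.40 with SE 0.05, adjusted p = 2.82e-06 by edgeR). NR1H3, which encodes LXR alpha and is itself an LXR target, had 5.35, 4.72 and 4.50 CPM in OBF1 shRNA libraries, against 4.93, 4.94 and 4.70 CPM in control libraries. Its groups overlapped and it did not pass the test (log2 fold change -0.003, SE 0.10, adjusted p = 0.977). SOAT1, which esterifies cholesterol for storage in droplets, had 71.3, 69.5 and 73.4 CPM in OBF1 shRNA libraries, against 63.3, 66.9 and 66.8 CPM in control libraries. The 1.09-fold gain (edgeR quasi-likelihood adjusted p = 0.00675) lost its call with library sizes alone (adjusted p = 0.788). CH25H, which makes the oxysterol precursor of the ligand of GPR183, had 0 counts in all 6 libraries, which at 3 counts a library allows a level of up to 0.106 CPM.

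Set side by side, 18 of 20 synthesis enzymes rose and 2 fell, with a median log2 fold change of 1.18, while 1 of the 2 efflux pumps could be tested and fell, by 1.15. The median over all genes tested was -0.01. The 18 enzymes that rose gained between 1.28-fold and 6.96-fold, 17 of them at least 1.5-fold, 11 at least 2-fold and 5 at least 4-fold. Among all genes tested, 37.5% were higher and 37.9% lower, and 12.9% were called and at least 1.5-fold higher. Shares of all genes at 2-fold and 4-fold were not computed. The enzymes just above those cutoffs, DHCR7 at 2.09-fold and LSS at 4.08-fold, stood at percentiles 94.0 and 97.7 of the log2 fold changes of all genes tested. Members known as LXR targets did not share the direction of ABCA1: of 4 tested, MYLIP and SREBF1 rose, ABCA1 fell and NR1H3 did not pass the test. The synthesis arm against the efflux arm was not tested as such, since 1 tested pump gives no spread.

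Ratios of related members within a library do not depend on how libraries are scaled. For 6 of 7 chosen pairs the ratio of RPKM values could be formed in every library, and ABCA1 over ABCG1 was left out because ABCG1 had libraries with 0 counts. The log2 ratio of INSIG1 to INSIG2 was 7.29, 7.19 and 7.26 in OBF1 shRNA libraries, against 4.63, 4.66 and 4.70 in control libraries, a difference of 2.58 (SE 0.04). For TM7SF2 over LBR it was -2.60, -2.51 and -2.50 in OBF1 shRNA libraries, against -4.87, -4.78 and -5.09 in control libraries, a difference of 2.38 (SE 0.10). These 2 pairs shifted most, INSIG1 and TM7SF2 gaining on their partners. For FDPS over GGPS1 the difference was 1.80 (SE 0.06) and for SREBF1 over SREBF2 0.42 (SE 0.04). NR1H3 changed relative to NR1H2 by -0.41 (SE 0.10) and NPC1 relative to NPC2 by -0.40 (SE 0.03), both on the log2 scale. The groups did not overlap for any of the 6 pairs. For single genes, the groups did not overlap for 76.6% of all genes tested, and no such share was computed for ratios of other pairs. Each exact two-sided permutation test gave p = 0.1, before and after Benjamini-Hochberg adjustment over 6 pairs, which is the smallest value that 3 libraries against 3 allow.

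**Figure D4:**
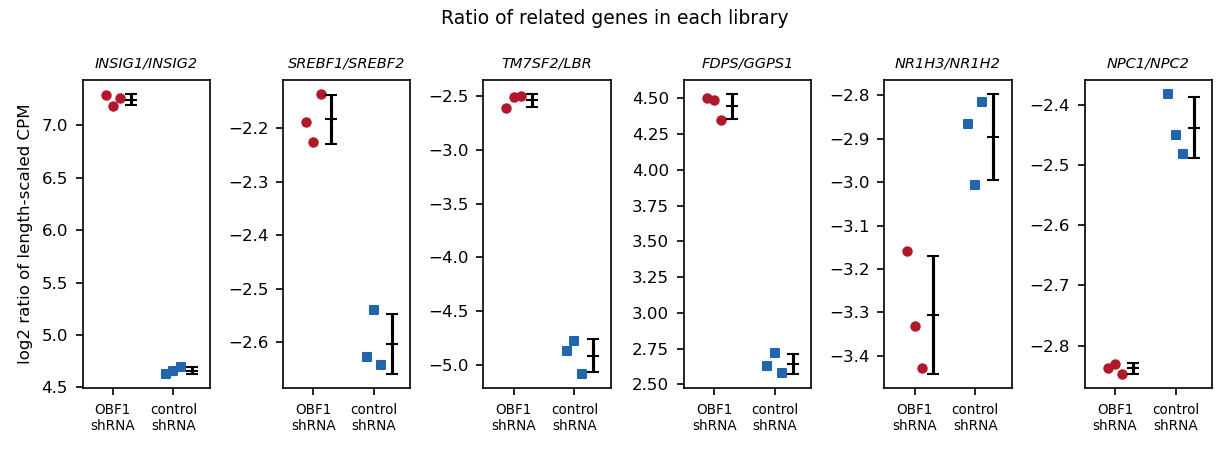
Log2 ratio of length-scaled CPM of 6 pairs of related genes, 1 point per library, with the mean ± SD of each group beside its points; OBF1 shRNA is left of control shRNA in each panel, and each panel has its own vertical scale. The groups are apart in every panel, with the largest difference, 2.58, for INSIG1 over INSIG2.

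Genes around the pathway, listed by function, were called in both directions. Of 12 genes that process SREBP or help to sense sterols, 2 were higher and 6 lower, or 1 higher and 9 lower with library sizes alone, where 37.5% of all genes tested were higher and 37.9% lower. FAF2, a factor of endoplasmic reticulum degradation, averaged 64.2 ± 1.71 CPM in OBF1 shRNA libraries and 93.5 ± 3.43 CPM in control libraries (SD, n = 3 each; log2 fold change -0.54, SE 0.04, adjusted p = 2.07e-10, edgeR quasi-likelihood). PAQR3, a Golgi membrane protein, averaged 32.3 ± 2.35 CPM in OBF1 shRNA libraries and 51.6 ± 3.05 CPM in control libraries (SD, n = 3 each). Of 16 genes that use mevalonate for dolichol, ubiquinone and protein prenylation, 6 were higher and 6 lower, or 3 higher and 8 lower with library sizes alone. With TMM scaling these shares were those of all genes tested, 37.5% higher and 37.9% lower, to within 1 gene. SRD5A3, which makes dolichol, fell by 0.63 on the log2 scale, and COQ2, of ubiquinone synthesis, rose 1.56-fold.

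Of 10 tested genes of intracellular sterol transport and ester handling, 4 were higher and 5 lower, or 2 higher and 6 lower with library sizes alone. The shares among all genes tested were 37.5% higher and 37.9% lower. LIPA, the lysosomal lipase that frees cholesterol from esters, averaged 105 ± 3.22 CPM in OBF1 shRNA libraries and 72.7 ± 2.19 CPM in control libraries (SD, n = 3 each), a 1.45-fold gain. TMEM41B, a lipid scramblase of the endoplasmic reticulum, averaged 14.3 ± 1.31 CPM in OBF1 shRNA libraries and 28.9 ± 3.44 CPM in control libraries (SD, n = 3 each), a 2.02-fold reduction. Among 4 tested LXR partners and further LXR targets, 3 were higher and 1 lower, or 2 higher and 1 lower with library sizes alone, with DESeq2, with the replicate number as a block, or without control replicate 1, control replicate 3, OBF1 shRNA replicate 1 or OBF1 shRNA replicate 3. LPCAT3, a phospholipid acyltransferase and LXR target, rose 1.35-fold, while RXRB, a dimer partner of LXR, fell by 0.37 on the log2 scale. Of 6 genes of oxysterol metabolism only 2 were high enough to test, and both were lower. CYP39A1, an oxysterol hydroxylase, averaged 3.26 ± 0.304 CPM in OBF1 shRNA libraries and 11.2 ± 0.613 CPM in control libraries (SD, n = 3 each; log2 fold change -1.78, SE 0.09, adjusted p = 6.61e-12, edgeR quasi-likelihood). HSD3B7, a sterol dehydrogenase of bile acid synthesis, averaged 1.56 ± 0.133 CPM in OBF1 shRNA libraries and 2.12 ± 0.354 CPM in control libraries (SD, n = 3 each; adjusted p = 0.0292 by edgeR quasi-likelihood). The call did not hold with DESeq2 (adjusted p = 0.104) or, with edgeR, without control replicate 1 (adjusted p = 0.136), control replicate 3 (0.0644), OBF1 shRNA replicate 1 (0.0988) or OBF1 shRNA replicate 2 (0.0517).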

How the data were processed

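Poly(A) RNA of 6 Raji libraries, 3 per hairpin, was sequenced with a stranded kit, per the labels' protocols. The authors deposited 1 table of raw read counts per gene for all 6 libraries, beside each gene's length. Builds hg19 and mm9 are named, with no role, in the submitters' processing notes. No aligner, counting tool, annotation or strand setting is given in the sources used here, so counts of overlapping genes and near copies are uncertain. Numeric gene identifiers were matched to a RefSeq gene table (GRCh38.p14) for 23308 of 23459 rows, and all 35 members matched. The 151 unmatched rows stayed in the tests, and 0 count columns were left out.

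Tests ran in edgeR 4.0.16 under R 4.3.3: filterByExpr (min.count 10, min.total.count 15), TMM factors, glmQLFit and glmQLFTest over 12010 genes without covariates, and Benjamini-Hochberg adjustment at 0.05. SE values were taken as the absolute log2 fold change over the root of its F statistic. RPKM is CPM divided by the deposited gene length in kilobases. Related members were compared by an exact permutation test over libraries. On simulated counts the fit was tested with changes of known size before use. The members, roles, further gene lists, pairs and motifs were chosen with earlier results of these data known. The text names all members, POU2AF1, and from each of 5 further lists the 2 tested genes with the smallest p; markers and near copies were named after their values were seen. Alternatives were DESeq2 1.42.0, limma-voom (limma 3.58.1), RLE, upper-quartile or no scaling factors, no low-count filter, a filter of 1 CPM in 3 libraries, a block for replicate number, each library left out, and, added later, a test against a 1.5-fold change. Total counts of 29569281 to 32612429 limit the precision of genes near the floor of 3 counts, which covers counting error only. Within groups, chi-square per degree of freedom between libraries was 1.84 to 3.17, above sampling noise for each pair of libraries.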

Additional observations from a re-analysis of the deposited data

How the results depend on the processing

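Of 33 tested members, 21 kept their side of the threshold under all 15 alternatives. All of these but NR1H3 also kept their direction. NR1H3, not called in any fit, ranged from -0.112 to 0.0522 on the log2 scale. All 20 synthesis enzymes kept their call and direction under the 14 alternatives chosen at the start. With 1 library left out, 31 to 32 members were called, out of 32 with all libraries, and 8632 to 8974 genes, out of 9058. SCAP alone accounted for the member lost in those fits. Library sizes without a composition factor moved the median log2 fold change of all genes to -0.12, from -0.01 with TMM, and left 28 members called. There SREBF2, NPC1 and SOAT1 lost their calls and SCAP turned to -0.0326 on the log2 scale (adjusted p = 0.370). Testing the fold change against 1.5, added after the data were seen, left 1967 called genes (1180 higher, 787 lower) and 20 members. Of those, 19 were higher and 1, ABCA1, was lower; 0 synthesis enzymes were called lower and 0 LXR targets higher. No sign of pairing by replicate number was seen. Same-numbered libraries of the 2 groups had correlations of their deviations from -0.172 to 0.0279, and only 1 of 6 libraries was closest to its own number. With 3 libraries per group, this check cannot exclude a pairing. With the replicate number as a block, 31 members and 8759 genes were called, 27 members were higher, and SCAP was the member lost. With 1 library left out, the difference in log2 ratio ranged from 2.56 to 2.61 for INSIG1/INSIG2, 2.29 to 2.44 for TM7SF2/LBR, 1.77 to 1.85 for FDPS/GGPS1, 0.40 to 0.45 for SREBF1/SREBF2, -0.48 to -0.35 for NR1H3/NR1H2 and -0.42 to -0.37 for NPC1/NPC2. ABCG1 and CH25H were too low for a test, and GRCh38.p14 promoter windows were not checked against the start sites used in Raji.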
